A study of Trichoderma reesei with 6 samples.

Results

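The gene ooc1 of the filamentous fungus Trichoderma reesei is described here across the libraries of a strain without cre1. It is 1 of the 9129 genes of the deposited table and was found there by its protein identifier '50323', which the RefSeq annotation of strain QM6a pairs with this symbol. Other genes without a symbol are named by that identifier. The gene was chosen by measured values, since its higher level on cellulose than on glucose in these same libraries was known beforehand. Its levels and the size of that difference are therefore given as a description and carry no test. Mycelium of the Δcre1 mutant, whose parental strain is QM9414, was shaken at 200 rpm and 28 °C in Mandels-Andreotti medium that held either 1% cellulose or 2% glucose. RNA was sequenced from 3 libraries per carbon source, described by the series as biological replicates. Both groups carry the cre1 deletion, and they differ in the percentage of the carbon source as well as in its kind. The series used culture times of 24, 48 and 72 h on cellulose and of 24 and 48 h on glucose, but the labels do not say which library had which time. An effect of culture time and an effect of the carbon source cannot be told apart.

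T. reesei lives on plant debris and secretes cellulases, hemicellulases and accessory proteins when it grows on cellulose. The activator Xyr1 switches these genes on, and the zinc-finger repressor Cre1 keeps many of them low while glucose is present. In the literature on this fungus, ooc1 is known for its transcript on cellulose. What its protein does is not stated in the sources used here.

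The libraries held 9009170 to 24655534 reads, with glucose library 1 the smallest. A single gene without a symbol took between 3.53% and 35.1% of the reads, most in cellulose library 1 (33.3%) and glucose library 1 (35.1%), so that scaling by the library total and the deposited scaling differ. Cellulose library 3 stood nearest to the other carbon source, since its log2 values correlated across genes at 0.915 on average with the glucose libraries, and at 0.954 with the other cellulose libraries. The deleted gene is given beside the labels, though its values in the mutant libraries alone cannot check them. Its normalised read counts were 2081, 3394 and 3314 in cellulose libraries 1, 2 and 3 and 997, 525 and 557 in glucose libraries 1, 2 and 3, so cre1 reads were present in every mutant library. The mutant-over-parent log2 fold change of cre1 in the authors' deposited table was -1.96 on cellulose and -3.11 on glucose. Which stretch of cre1 was removed is not stated, so whether these reads come from a remaining stretch was not tested.

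The ooc1 transcript was abundant in every cellulose library and at 87 reads in all over the 3 glucose libraries. Its normalised read counts, as deposited, were 18460, 17273 and 8045 in cellulose libraries 1, 2 and 3. On glucose they were 77.3, 7.26 and 30.1 in libraries 1, 2 and 3. The groups did not overlap, and the lowest cellulose library was 104-fold above the highest glucose library. Its mean was 14593 ± 5701 on cellulose (SD, n = 3) and 38.2 ± 35.7 on glucose (SD, n = 3). As RNA was taken from whole mycelium, fewer cells with the transcript and less of it per cell cannot be told apart. On the log2(normalised count + 1) scale the difference was 8.98 (SE 0.76), and the 9 pairs of a cellulose and a glucose library differed by 6.68 to 11.13. Of 8176 genes measured with a mean of at least 10, 4 had a larger log2 difference than ooc1. That number was 15 in edgeR, 13 in DESeq2, 10 without glucose library 2, and 2 without glucose library 1, without glucose library 3 or with a pseudocount of 10. In the limma fit with all libraries and a pseudocount of 1, axe1, an acetyl xylan esterase gene, was the one gene with a symbol among the 4. The mannanase gene man5a also exceeded ooc1 in edgeR, in DESeq2 and without glucose library 2, and axe1 did not with a pseudocount of 10.

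**Figure D1:**
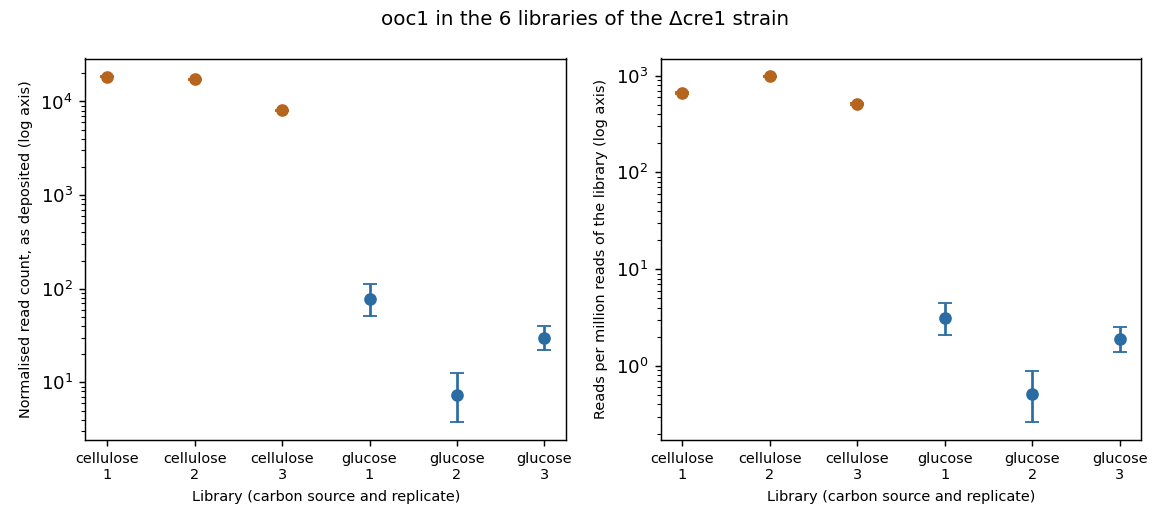
The level of ooc1 in each library of the Δcre1 strain, as the deposited normalised read count (left) and as RPM, the reads scaled to the library's total (right), both on log axes. Points are libraries and bars are exact 95% Poisson intervals, which cover counting error only. The cellulose libraries lie between 8045 and 18460 normalised counts and the glucose libraries between 7.26 and 77.3.

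The glucose values rest on few reads. The recovered ooc1 reads numbered 12170, 21976 and 10749 in the cellulose libraries and 28, 12 and 47 in the glucose libraries, in the order of their numbers. Scaled to the library's total (RPM), glucose library 2 had 0.507 (exact 95% Poisson interval 0.262 to 0.886), and glucose libraries 1 and 3 had 3.11 (2.07 to 4.49) and 1.91 (1.40 to 2.53). Library 2 was thus below both others by more than counting error, while the intervals of libraries 1 and 3 overlapped in RPM. On the deposited scale those of libraries 1 and 3 did not overlap, at 51.4 to 112 and 22.1 to 40.0 normalised counts. These reads show that the transcript was detected on glucose in all 3 libraries, at 12 to 47 reads per library.

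The order of the cellulose libraries depended on the scaling. By the deposited scaling, libraries 1 and 2 were close and library 3 was 2.29-fold below library 1. In RPM the values were 662, 981 and 507 in libraries 1, 2 and 3, with library 2 the highest. With the most abundant gene left out of the totals they were 994, 1017 and 536. Library 3 was the lowest under each of these scalings. On the deposited scale, the SD of the ooc1 log2 values within the cellulose group was 0.67. Of the 2856 genes with a cellulose mean of at least 1000, 90.0% had a smaller one. The cellulose degradation genes that rose, described below, all had a larger one, from 0.94 to 1.78.

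Genes for cellulose breakdown were counted in the same libraries, from a list written by symbol. The annotation held 14 of its 31 symbols, so a gene found under none of its symbols was not compared. Over all 8176 genes tested, limma with Benjamini-Hochberg adjustment called 18.2% higher and 11.2% lower on cellulose. In the cellulose degradation list 14 genes were tested, of which 10 were higher, 1 was lower and 3 missed the threshold, with a median log2 difference of 6.54 against -0.02 over all genes tested. The cip1 gene, for a secreted protein with a cellulose-binding module, rose by a log2 difference of 8.67 (SE 0.69, limma adjusted p = 0.0003). The endoglucanase gene cel5a rose by 8.46 (SE 0.96), and the cellobiohydrolase gene cel7a by 8.09 (SE 0.88). The lower one, singled out once its values were known, was the β-glucosidase gene cel3b at -1.28 (limma adjusted p = 0.0383). Its adjusted p ranged between 0.00368 and 0.118 in the alternatives, and the call was lost in edgeR, with the replicate block and without cellulose library 1 or any single glucose library. The intracellular β-glucosidase gene cel1a, at 1.35, missed the threshold (limma adjusted p = 0.0513). In the alternatives its adjusted p lay between 0.000502 and 0.150, and it passed in edgeR, in DESeq2, with the replicate block and without cellulose library 3.

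The log2 difference of ooc1 was larger than that of each of the 14 members found by symbol. The exception was cip1, which exceeded it in edgeR, in DESeq2 and without cellulose library 2 or glucose library 2. On the deposited scale, each of the 10 members that rose was highest in cellulose library 1 and lowest in library 3, as ooc1 was. In RPM, ooc1 was highest in library 2, and whether these members keep their order there was not tested. Library 1 exceeded library 3 by 2.29-fold for ooc1 and by 3.18-fold to 11.01-fold for these 10 genes, so all 10 had a larger ratio. For library 2 over library 3 the ooc1 ratio was 2.15, and 9 of the 10 had a smaller one. The range was from 1.77 for cel7b to 2.97 for the intracellular β-glucosidase gene cel1b. For library 1 over library 2 the ratio was 1.07 for ooc1 and for cel1b, against 2.25 to 5.41 for the other members that rose. Ranks of genes by such a ratio do not change with the scaling of a library. They describe 3 libraries and were not tested. The call of cel1b was lost without cellulose library 1 or 2 or any single glucose library, with adjusted p-values between 0.0729 and 0.0985 there.

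Of the 3 hemicellulose degradation genes with a symbol, 2 rose, axe1 by a log2 difference of 9.91 (SE 0.75) and the mannanase gene man5a by 8.62 (SE 0.86). The acetyl esterase gene axe2, at -0.76, missed the threshold (limma adjusted p = 0.0502, between 0.0240 and 0.173 in the alternatives), and it passed in DESeq2, without cellulose library 2, with a pseudocount of 10 and under the scalings without the most abundant gene and by quantiles. Among the 6 listed cellulase regulators found by symbol, 2 rose and 4 did not pass, beside 18.2% of all genes tested that were called higher. The remaining signal of the deleted gene cre1 was among the 2, at 2.11 (SE 0.30). The activator gene xyr1 had 20926, 9767 and 5293 normalised counts in cellulose libraries 1, 2 and 3 and 5897, 5043 and 5067 in glucose libraries 1, 2 and 3. Its log2 difference of 0.95 did not pass (limma adjusted p = 0.148, between 0.00953 and 0.330 in the alternatives), and its groups overlapped through cellulose library 3. It passed in DESeq2 and without that library, where the xyr1 log2 difference was 1.43 and that of ooc1 was 9.36.

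The genes whose pattern was most like that of ooc1 were ranked by the root mean square difference of log2 values, each gene centred on its mean over the 6 libraries. Among 7354 genes with a mean of at least 50, the median distance was 4.62 log2 units, and 19 genes lay within 1 unit of ooc1. The nearest was the gene with protein identifier 55886, at 0.22. It had 1887, 1461 and 692 normalised counts in the cellulose libraries and 5.52, 0 and 2.56 in the glucose libraries. Its glucose values rest on 6 reads in all, so its small distance depends in part on values near the floor. Next came 124079 at 0.30, 119552 at 0.34, 82208 at 0.39, 123236 at 0.48, 112258 at 0.49, 108642 at 0.54, 111915 at 0.54 and 106538 at 0.65, none of which has a symbol. The tenth was cip1 at 0.72, with 28069, 8355 and 4694 counts on cellulose and 49.7, 13.9 and 20.5 on glucose. The nearest genes with a symbol after cip1 were man5a at 0.77, cel7a at 0.87, cel5a at 1.00 and axe1 at 1.05.

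The likeness covered the glucose libraries too. On the deposited scale, glucose library 1 was the highest for ooc1 and library 2 the lowest. All 10 nearest genes had this order on that scale, a likeness that the ranking itself favours. Each of these 10 genes held between 6 and 933 glucose reads over the 3 libraries, so for some the order rests on few reads. Whether the order holds in RPM was not tested. The 10 genes had log2 differences from 8.25 to 9.21 between the carbon sources. The list depended on the measure. By Pearson correlation 4 of the 10 nearest were shared, and none was among the 10 nearest when the 3 cellulose libraries were used alone. All values come from the same 6 libraries, so the ranking mainly follows the difference between the carbon sources.

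**Figure D2:**
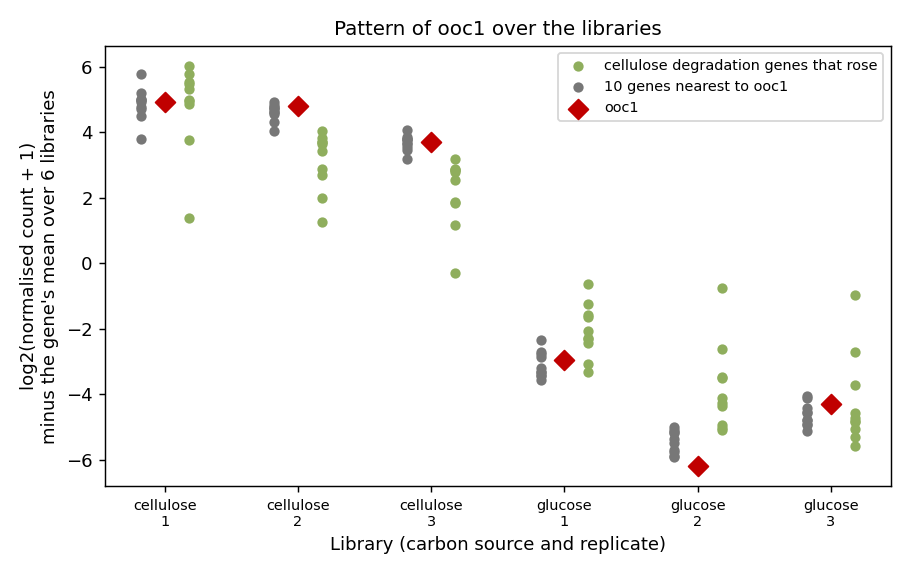
The log2(normalised count + 1) of each gene minus its mean over the 6 libraries, for ooc1 (red), the 10 genes nearest to it (grey) and the 10 cellulose degradation genes that rose (green). Each point is 1 gene in 1 library, and cip1 belongs to both sets. The ooc1 point lies among the grey points in all libraries except glucose library 2, where it is below them, and the cellulose degradation genes spread more widely.

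Neighbouring genes were taken by their place in the reference annotation and not by their values. Of the 5 genes on each side of ooc1, 8 had a mean of at least 10 and were tested, of which 2 rose, 3 fell and 3 did not pass. That is 62.5% of those tested, against the 18.2% higher and 11.2% lower over all genes. Both genes that rose lay directly next to each other on the same side of ooc1. The adjacent gene, 66077, had 179, 112 and 78.6 normalised counts in cellulose libraries 1, 2 and 3 and 0, 0 and 1.28 in glucose libraries 1, 2 and 3. Its groups did not overlap, and its log2 difference was 6.48 (SE 0.62, limma adjusted p = 0.0006). It had 366 reads on cellulose and 2 on glucose, a pooled ratio of 200 with an exact 95% interval of 55.0 to 1660 for counting error. Its log2 difference was 3.61 with a pseudocount of 10 and kept its call there.

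The second gene on that side, 122975, had 1288, 925 and 444 counts on cellulose and 22.1, 20.0 and 14.1 on glucose, with a log2 difference of 5.38 (SE 0.41, limma adjusted p = 0.0002). Like ooc1, both were lowest in cellulose library 3 among the cellulose libraries. So were the neighbours 122974 and 80091, which did not pass, and 109687 and 65854, which were lower on cellulose. This low was thus not particular to the genes that rose. Beyond 66077 and 122975, the gene 80086 went the other way (log2 difference -2.96, limma adjusted p = 0.0006). It had 519, 271 and 468 counts on cellulose and 2494, 3157 and 3982 on glucose. On the other side of ooc1, the adjacent gene 65736 had 5.12 to 29.1 counts in 5 libraries and 0 in glucose library 1 and did not pass (limma adjusted p = 0.105). Further out, 109687 at -3.22 (limma adjusted p = 0.0094) and 65854 at -1.76 (limma adjusted p = 0.0311) were lower on cellulose. The call of 65854 was lost without cellulose library 2 or any single glucose library, with adjusted p-values from 0.0824 to 0.0938 there. The labels do not say that counting used strand. Whether reads of transcripts that run past an annotated gene end entered these counts was not tested.

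**Figure D3:**
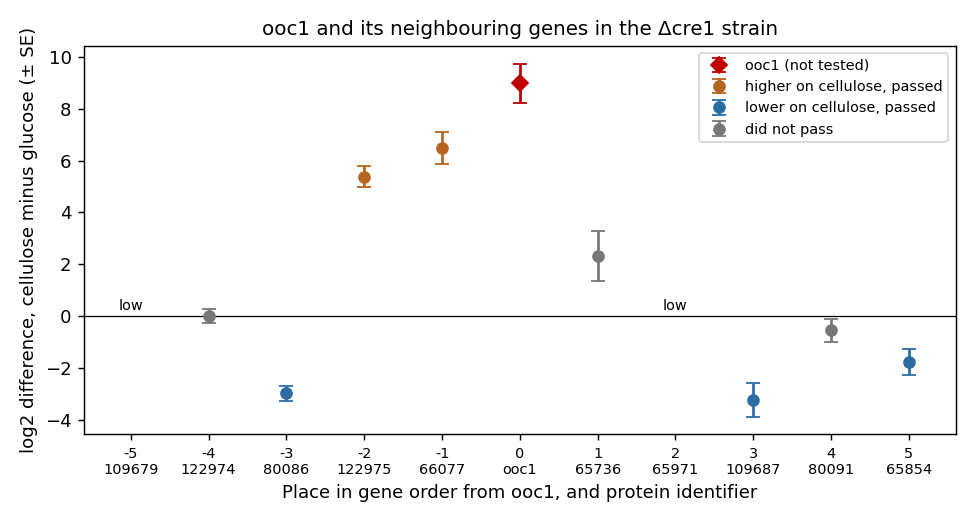
The log2 difference between cellulose and glucose (with its SE) for ooc1 and the 5 annotated genes on each side, in gene order and not to distance. The genes 66077 and 122975 stand at 6.48 and 5.38 beside ooc1 at 8.98, and the genes around them lie between -3.22 and 2.34. Genes marked "low" had a mean under 10 and were not tested.

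The mutant was compared with parental QM9414 through the authors' own fold changes. Which libraries entered those fits, and whether the strains were grown and sequenced together, is not stated, so a batch and the loss of cre1 cannot be told apart. On cellulose the authors' deposited table gave ooc1 a log2 fold change of 1.93 in the mutant over the parent (deposited adjusted p = 2.01e-14), which is 3.81-fold. The parent's own libraries are not analysed here. The authors' deposited table called 6.76% of 8788 genes higher and 2.51% lower on cellulose. In that deposited comparison 179 genes stood at or above the ooc1 value, ooc1 included, and 61 of them were called. On glucose the authors' deposited table gave ooc1 a log2 fold change of -4.97 without a call (deposited adjusted p = 0.513). Whether a single parental library decides that value was not tested, so it is not read here as a lower level in the mutant. There the authors' deposited table called 4.48% of 8789 genes higher and 3.45% lower. With 33 genes at or below the ooc1 value on glucose, ooc1 included, 9 were called in the authors' deposited table. 

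The deposited fold changes of the genes nearest to ooc1 in pattern are given beside its own. Of the 10 nearest genes, the authors' deposited table called 6 higher in the mutant on cellulose, against 6.76% of all genes with a fold change. The median log2 fold change was 1.03 over the 10, with a range from -0.12 to 1.68, against -0.0004 over all genes. All 10 nearest genes were below the ooc1 value. On glucose 9 of the 10 had deposited log2 fold changes of -2 or lower, as did 4.18% of all genes with a fold change, and none of the 10 was called. Their glucose median in the authors' deposited table was -4.25, against -0.04 over all genes. The exception was cip1, at 0.92 on glucose. These genes were picked for a pattern in which mutant glucose values lie far below the gene's own mutant cellulose values. Neither deposited comparison is thus independent of the choice.

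For the cellulose degradation list most deposited glucose values carried no call. In the authors' deposited table, the 10 members that rose on cellulose in the mutant all had glucose log2 fold changes above zero, from 0.87 to 3.28, but cel1b alone of these 10 was called there. Of the 14 list members, 4 were called higher in the mutant on glucose in the authors' deposited table, against 4.48% of all genes with a fold change. They were the β-glucosidase genes cel3b, cel3c, cel1a and cel1b, and the list median was 1.65. On cellulose the authors' deposited table called 1 of the 14 members higher and 2 lower, against 6.76% and 2.51% of all genes with a fold change. The list median there was 0.30. On cellulose cel61a alone, a lytic polysaccharide monooxygenase gene at 2.08 without a call (deposited adjusted p = 0.142), stood above ooc1. Of the neighbours, 122975 was at 0.78 on cellulose in the authors' deposited table, a call (deposited adjusted p = 0.0439) and was at -1.02 on glucose without a call. The adjacent gene 66077 was at 1.33 and -1.77 in the authors' deposited table, neither of them called. The neighbour 80086, lower on cellulose in the mutant, was at 3.06 on glucose there, a call (deposited adjusted p = 8.32e-11). It was at 1.35 on cellulose without a call. The other neighbours that fell, 109687 and 65854, were at 3.89 and 4.19 on glucose without a call.

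**Figure D4:**
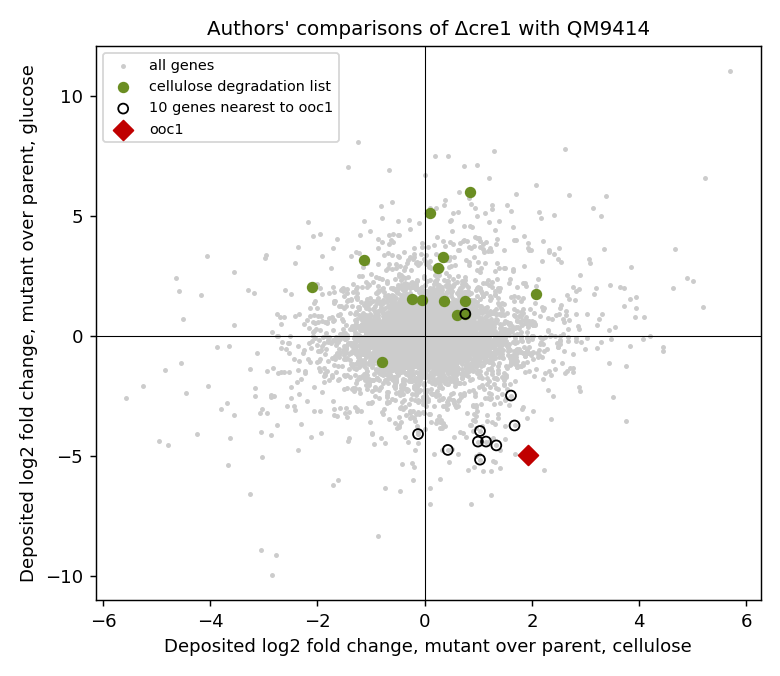
Log2 fold changes of the mutant over the parent in the authors' deposited table, on cellulose (horizontal) and glucose (vertical), without the placeholder values. Each point is a gene. The ooc1 point lies at 1.93 and -4.97, and 9 of the 10 genes nearest to it in pattern lie at -2 or below on glucose. Neither ooc1 nor any of these 10 genes was called on glucose. Mutant glucose values far below the gene's own mutant cellulose values entered the choice of the 10. The 14 cellulose degradation genes lie at -1.07 or above on glucose.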

How the data were processed

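Per the labels' protocols, Illumina TruSeq RNA libraries of the Δcre1 strain were sequenced. Tools listed in the submitters' processing notes are DESeq 1.10.1, Bowtie 0.12.8 and SAMtools 0.1.18, without their roles. Which build, annotation and counter were used is not stated there.

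The authors deposited a normalised count (signal) per gene and library. In each library these were whole multiples of 1 step, and dividing by it gave whole reads for 100% of values within 0.01 read. The authors' deposited log2 fold changes and adjusted p-values compare mutant and parent, per the file headers. Deposited fold changes of 0, or of 100 in size with either sign, were left out as placeholders. Another 6 per-library columns have no sample label here and were not used.

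Of 9129 identifiers, 9072 matched the reference (QM6a, assembly v2.0) and 226 had a symbol. The reference served for names and gene order only. Promoter motifs, though planned, were not analysed here.

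Cellulose was compared with glucose by limma 3.58.1 (R 4.3.3) with an intensity trend on log2(normalised count + 1), a scale that shrinks differences at low counts. The 953 genes whose mean was under 10 were left out. Two-sided p-values were adjusted by Benjamini-Hochberg over 8176 genes, with a threshold of 0.05. Exact tests of 3 against 3 cannot reach that threshold. Alternatives included edgeR 4.0.16 and DESeq2 1.42.0 on the recovered reads. The fit was tested on simulated data.

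ooc1, the gene lists (by symbol) and the tests were chosen with earlier results of these data known. The rule named ooc1, cre1, the list members with the largest differences and the one nearest to the threshold, 10 neighbours, the 10 nearest patterns and the 5 nearest with a symbol. Named outside it, after their values were seen, were cel3b, cel3c, cel1b, cel7b and cel61a. The values of 1 list member are not reported here. Exact intervals are Poisson, or Clopper-Pearson for the pooled ratio.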

Additional observations from a re-analysis of the deposited data

How the results depend on the processing

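The ooc1 log2 difference stayed between 8.12 (without glucose library 2) and 9.74 (without glucose library 1) over 16 alternatives. The neighbours called numbered 4 or 5, the hemicellulose genes that rose 2, the regulators 2 or 3 and the cellulose degradation genes 9 to 12. The replicate numbers did not pair the libraries (correlations of deviations 0.12, -0.14 and -0.03). With the replicate block the ooc1 difference was 8.98, the genes called higher numbered 1264 and those called lower 647, against 1490 and 913, cel1a passed and cel3b did not. edgeR called 2325 genes and DESeq2 2784, against 2403 in limma.

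The counts over all genes moved more, and the cause was not tested. Leaving out 1 library gave 999 to 1720 genes higher and 361 to 1369 lower. Leaving out glucose library 1, 2 or 3 gave 532, 361 or 456 lower, and leaving out cellulose library 2 gave 574. In RPM, 872 genes were higher and 446 lower. With the most abundant gene left out of the totals 1533 were lower, and under quantile normalisation 1520. The higher share of calls fell from 62.0% to 41.3% and 45.7% in these last 2 settings. The median log2 difference over all genes moved by -0.15, -0.30 and -0.16 under these 3 scalings, and the neighbours and list members that passed kept their direction there. At a deposited adjusted p under 0.01 the authors' deposited table called 508 genes on cellulose and 429 on glucose, against 815 and 697. Of the 10 genes nearest to ooc1, 4 were shared by Pearson correlation, 0 in the cellulose libraries alone and 9 with a pseudocount of 10. The gene 65736 had no value without cellulose library 2, where its mean fell under 10. The glucose level of ooc1 rests on 87 reads, and glucose library 2 was below the other glucose libraries by more than counting error.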
